A study of Rattus norvegicus with 6 samples.

Results

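Of the 30498 genes in the deposited tables, 42 Wnt ligands, receptors, secreted modulators and Axin scaffolds of the Wnt pathway are described here. The rule that picks them uses gene names and no measured value, taking genes called Wnt, Fzd, Sfrp, Dkk or Rspo followed by a number, plus Lrp5, Lrp6, Axin1 and Axin2; 1 gene of the Wnt family is outside that rule and was not analysed here. The rule was set with earlier results of these data known. The 42 genes comprise 18 Wnt ligands, 9 Frizzled receptors, 2 Lrp co-receptors, 4 R-spondins, 4 secreted Frizzled-related proteins (Sfrp), 3 Dickkopf family genes (Dkk) and 2 Axin scaffolds. The libraries came from brains of newborn rats (Rattus norvegicus) delivered by Caesarean section. In the CR group (3 libraries) the dams had been calorically restricted, which gives a model of fetal growth restriction. In the control group (3 libraries) they are labelled only as control. The degree and timing of the restriction are not stated. The labels give no strain, sex, age beyond birth or litter, and call the tissue whole brain in both groups. Whether the 3 libraries of each group stem from different pups or dams is not stated, and the spread behind every p-value may therefore be partly technical.

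Wnt proteins are lipid-modified secreted signals that bind a Frizzled receptor and, for signalling through beta-catenin, an Lrp5 or Lrp6 co-receptor. Without a ligand, the Axin scaffold holds a complex that marks beta-catenin for destruction. Sfrp proteins bind Wnt ligands outside the cell, Dkk proteins can block the co-receptors, and R-spondins raise the number of receptors at the cell surface by removing the enzymes that clear them. In the developing brain the pathway patterns the dorsal midline and the regions behind the telencephalon, sustains progenitors, guides axons and directs vessel growth.

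Expression was measured as FPKM, fragments per kilobase of exon scaled to library depth, by RNA sequencing of polyadenylated RNA. The libraries held 22161522, 25734737 and 25690833 assigned reads for CR replicates 1 to 3, against 14030961, 25345354 and 18429571 for control replicates 1 to 3. These depths were recovered from the steps between FPKM values. Markers of brain regions differed between the groups and stand in the plot of marker levels. Neuronal markers were high in every library, with summed levels of 2920 to 2990 FPKM in CR and 2860 to 3220 FPKM in control. In the control libraries the label whole brain was not matched by markers of the hindbrain and midbrain. The summed FPKM of 5 hindbrain markers was 8.29 to 34.1 in CR and 0.229 to 0.296 in control, where Hoxa2, Hoxb3 and Hoxb5 had no read. For 5 midbrain markers the sums were 22.1 to 27.3 FPKM in CR and 0.649 to 1.12 FPKM in control. Thalamic markers summed to 74.3 to 110 FPKM in CR and 3.23 to 19.5 FPKM in control, and hypothalamic markers to 39.0 to 55.9 FPKM in CR and 3.84 to 4.93 FPKM in control. Dorsal telencephalic markers ran the other way, at 106 to 169 FPKM in CR and 278 to 385 FPKM in control. CR replicate 3 held the highest hindbrain sum. Of the tested markers, 4 of 5 hindbrain, 5 of 5 midbrain, 4 of 4 thalamic, 4 of 4 hypothalamic and 4 of 4 astrocyte genes rose in CR. Of all genes tested, 17.7% rose. The hindbrain and midbrain markers, Shox2 and Otp averaged under 0.5 FPKM in control, the mean level needed for testing. These genes could enter the test only by being higher in CR, so their counts are a description. Choroid plexus markers overlapped, at 2180 to 2750 FPKM in CR and 1150 to 2770 FPKM in control. Astrocyte markers summed to 70.9 to 89.6 FPKM in CR and 20.8 to 34.4 FPKM in control. Regional markers and maternal feeding differ between the same libraries, so their parts in any result here cannot be told apart. In bulk tissue, fewer cells of a type and less RNA per cell cannot be told apart either.

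**Figure D1:**
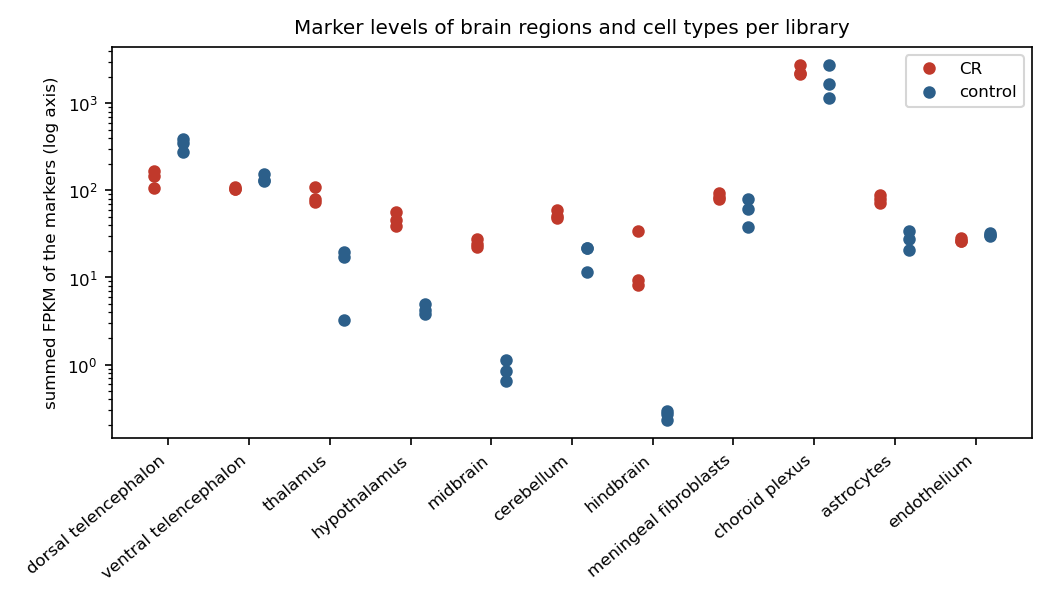
Summed FPKM of each marker list in the 3 CR libraries (red) and the 3 control libraries (blue), on a log axis. Midbrain markers sat at 22.1 to 27.3 FPKM in CR and at 0.649 to 1.12 FPKM in control, while dorsal telencephalic markers sat at 106 to 169 FPKM in CR and at 278 to 385 FPKM in control.

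The 42 genes moved in both directions. Of these, 30 averaged 0.5 FPKM or more across the 6 libraries and entered the test. Among them 8 rose and 7 fell in CR at an adjusted p under 0.05 (limma on log2(FPKM + 1), two-sided, Benjamini-Hochberg over the 15247 genes tested), and 15 did not pass. Of all genes tested, 33.9% passed, 17.7% as higher and 16.2% as lower in CR, so calls were common in these libraries. The median log2 fold change was 0.09 over the 30 genes and 0.01 over all genes tested. Regardless of sign, the median was 0.27 over the 30 genes and 0.20 over all genes tested. CR and control did not overlap for 12 of the 30 genes with CR above and for 10 with CR below, against 26.1% and 24.3% of all genes tested, or 50.3% in either direction.

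In the 8 genes that rose, CR means were 1.52 to 4.04 times the control means, and in the 7 that fell they were 0.588 to 0.762 of the control means. Wnt9a reached the 0.5 FPKM level through the CR libraries alone, so it could enter the test only by being higher in CR. Without it, 7 of 29 tested genes rose and 7 fell. Sfrp1, Axin1, Fzd3, Dkk3, Wnt7b, Wnt7a, Lrp6, Axin2 and Rspo3 were the 9 members with a mean of at least 5 FPKM, and 18 members lay under 1 FPKM. Fold changes on the log2(FPKM + 1) scale understate the change of such low genes. With quantile normalization 4 genes rose and 6 fell. Without CR replicate 2, 3 rose and 4 fell, and without CR replicate 3, 2 rose and 5 fell. Without CR replicate 1 or control replicate 1, 4 rose and 6 fell, and without control replicate 2, 4 rose and 5 fell. The calls of 6 genes held under each of the 17 alternatives in which they were computed, and 9 were lost under at least 1.

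**Figure D2:**
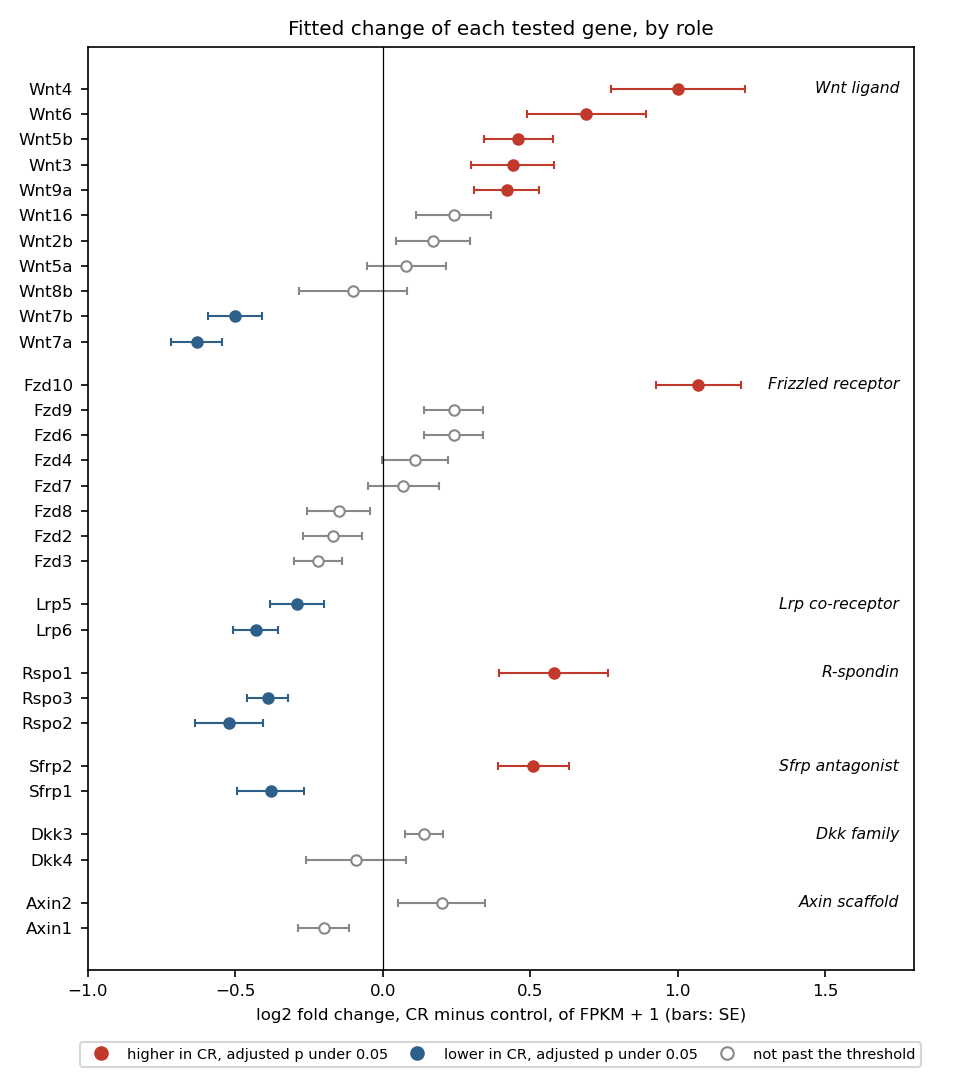
Fitted log2 fold change (CR minus control, of FPKM + 1) of the 30 tested genes with its standard error, grouped by role, with filled points past an adjusted p of 0.05. Fzd10 at 1.07 and Wnt4 at 1.00 lie farthest to the right, and Wnt7a at -0.63 lies farthest to the left.

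The stretches before the gene starts are printed for 4 called genes, picked by log2 fold change of FPKM + 1. Wnt4 and Wnt7a are the tested ligands with the largest rise and fall on that scale. By the ratio of means, Wnt9a (2.50) rose more than Wnt4 (2.42). Fzd10 and Rspo1 are the Frizzled and the R-spondin with the largest called change. The stretch of Axin2, a feedback target of the pathway, is added because it holds the motif searched, and was chosen after this was seen. They are the 250 bases upstream of the start in RefSeq's table for the rat build GRCr8, on the gene's own strand, 5′ to 3′. The intervals are chr10:94398535-94398784 (+) for Axin2, chr5:154797200-154797449 (+) for Wnt4, chr4:125466150-125466399 (-) for Wnt7a, chr12:33737560-33737809 (-) for Fzd10 and chr5:142536040-142536289 (+) for Rspo1. Capitals mark CTTTGAT or its reverse complement ATCAAAG, a form of the core letters that Tcf and Lef factors bind. Other forms of the core were not searched.
Axin2: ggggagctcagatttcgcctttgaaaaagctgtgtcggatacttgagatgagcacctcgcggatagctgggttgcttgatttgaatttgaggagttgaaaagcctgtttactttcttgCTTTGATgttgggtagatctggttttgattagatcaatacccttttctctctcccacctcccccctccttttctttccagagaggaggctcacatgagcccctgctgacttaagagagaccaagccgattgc
Wnt4: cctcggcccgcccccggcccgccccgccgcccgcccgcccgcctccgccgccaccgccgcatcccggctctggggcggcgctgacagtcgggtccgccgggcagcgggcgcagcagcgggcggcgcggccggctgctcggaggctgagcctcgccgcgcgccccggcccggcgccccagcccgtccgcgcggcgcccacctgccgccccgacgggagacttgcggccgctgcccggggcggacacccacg
Wnt7a: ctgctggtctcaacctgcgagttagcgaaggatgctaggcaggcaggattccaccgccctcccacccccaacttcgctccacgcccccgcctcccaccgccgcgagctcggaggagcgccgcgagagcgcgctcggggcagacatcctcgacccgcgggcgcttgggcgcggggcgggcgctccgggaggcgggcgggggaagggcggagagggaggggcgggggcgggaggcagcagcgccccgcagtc
Fzd10: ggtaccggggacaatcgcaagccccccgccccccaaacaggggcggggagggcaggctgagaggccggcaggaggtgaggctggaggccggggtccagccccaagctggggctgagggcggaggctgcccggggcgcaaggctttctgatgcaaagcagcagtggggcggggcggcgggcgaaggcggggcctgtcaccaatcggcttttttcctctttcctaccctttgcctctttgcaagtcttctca
Rspo1: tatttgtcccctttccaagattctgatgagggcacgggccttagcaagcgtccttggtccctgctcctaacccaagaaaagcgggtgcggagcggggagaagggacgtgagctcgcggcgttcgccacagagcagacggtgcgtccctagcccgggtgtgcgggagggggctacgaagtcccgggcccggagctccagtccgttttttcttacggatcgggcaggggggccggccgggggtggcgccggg
RefSeq's table held 26 of the 42 genes. The motif, searched on both strands, was found in 1 of these 26, at 132 bases before the start of Axin2, and in 3.15% of all 33469 promoters of that length. CpG dinucleotides numbered 5 to 47 in the 26 stretches, with a median of 21.5 against 5.0 over all promoters. Wnt4 held 47, Wnt7a 32, Rspo1 24, Fzd10 15 and Axin2 5. A match of letters is a description of the sequence and not a bound site.

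The most abundant ligands fell and a group of weaker ligands rose. Wnt7a and Wnt7b, close relatives that are made by neural progenitors and neurons and direct brain vessel growth, made up most of the ligand RNA in control. Wnt7a (ENSRNOG00000048782, mRatBN7.2 chr4:123863108-123908981) had 7.23, 8.70 and 7.03 FPKM in CR, against 12.1, 12.0 and 13.0 FPKM in control. Every CR library lay below every control library, and the means were 7.65 ± 0.909 FPKM in CR and 12.4 ± 0.523 FPKM in control (SD, n = 3 each). The log2 fold change was -0.63 (SE 0.0864, limma adjusted p = 0.00214). Wnt7b (ENSRNOG00000015750, mRatBN7.2 chr7:116634814-116679581) had 9.54, 7.61 and 7.89 FPKM in CR, against 11.4, 12.7 and 12.5 FPKM in control, again without overlap. Its log2 fold change was -0.50 (SE 0.0919, limma adjusted p = 0.00597). Both calls held in every alternative in which they were computed. Dorsal telencephalic markers, which include Emx1, Neurod6 and Tbr1, also fell in 5 of 6 cases. Their sum was 106 to 169 FPKM in CR and 278 to 385 FPKM in control. Of 6 ventral telencephalic markers 5 fell and 1 rose, with sums of 105 to 110 FPKM in CR and 129 to 155 FPKM in control. The summed markers of radial glia, a progenitor type, ran the other way, at 1020 to 1100 FPKM in CR and 711 to 887 FPKM in control. Most of that sum was Fabp7, at 911, 879 and 945 FPKM in CR and 740, 592 and 669 FPKM in control. Of the 5 radial glia markers 2, Fabp7 and Pax6, rose. The other 3, Sox2, Slc1a3 and Hes5, overlapped between the groups and did not pass. The part of any of these markers in the fall of both ligands was not tested.

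Wnt4, Wnt6, Wnt3, Wnt5b and Wnt9a were higher in CR, each with no overlap between groups. Wnt4, a ligand known for kidney and gonad development and also made in the nervous system, had 4.06, 4.60 and 4.90 FPKM in CR, against 1.51, 1.06 and 3.01 FPKM in control. The CR libraries lay close together and control replicate 3 was the highest control. Wnt4 averaged 4.52 ± 0.427 FPKM in CR and 1.86 ± 1.02 FPKM in control (SD, n = 3 each), 2.42 times as high in CR, with a log2 fold change of 1.00 (SE 0.226, limma adjusted p = 0.0131). Its gene is ENSRNOG00000013166 at mRatBN7.2 chr5:149514018-149532859.

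Wnt6 had 2.19, 1.71 and 1.40 FPKM in CR, against 0.794, 0.287 and 1.13 FPKM in control. The lowest CR library stood not far above the highest control library (log2 fold change 0.69, SE 0.201, limma adjusted p = 0.0325). Wnt3, a ligand that signals through beta-catenin, had 1.63, 2.27 and 1.64 FPKM in CR, against 0.850, 1.06 and 1.39 FPKM in control. Here CR replicate 2 was the high library, and the log2 fold change was 0.44 (SE 0.142, limma adjusted p = 0.0466).

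Wnt5b, a ligand linked to signalling without beta-catenin, had 1.84, 1.61 and 2.01 FPKM in CR, against 0.914, 1.27 and 0.960 FPKM in control. All CR libraries lay above control (log2 fold change 0.46, SE 0.116, limma adjusted p = 0.0191). Wnt9a had 0.729, 0.698 and 0.722 FPKM in CR, against 0.384, 0.201 and 0.276 FPKM in control. The CR values were nearly equal, and the log2 fold change was 0.42 (SE 0.111, limma adjusted p = 0.0239). Its control mean of 0.287 FPKM lay under the level filter, so the filter bears on this call.

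Of these 5 calls, that of Wnt4 held whichever library was left out. Wnt3 and Wnt6 lost theirs without any 1 library except control replicate 3, with adjusted p of 0.0706 to 0.156 for Wnt3 and 0.0507 to 0.101 for Wnt6. Wnt5b lost its call without CR replicate 1, CR replicate 3 or control replicate 1 (0.0523 to 0.0759). Wnt9a lost its call without control replicate 2 or control replicate 3 (0.051 to 0.067), and fell under the level filter without any 1 CR library. Control replicate 2 was the lowest control for 8 of the 11 tested ligands, against 43.2% of all genes tested. Markers of meningeal fibroblasts summed to 79.0 to 94.5 FPKM in CR and to 61.9, 37.6 and 78.7 FPKM in control replicates 1 to 3, and 1 of 5 rose. Thalamic, midbrain and cerebellar markers were also higher in CR. Cerebellar ones summed to 48.7 to 58.9 FPKM in CR and 11.6 to 21.8 FPKM in control. Most of that control sum was Zic1, at 20.5, 10.9 and 20.4 FPKM in control replicates 1 to 3. Barhl1 had 7.02 to 8.8 FPKM in CR and 0.0298 to 0.113 FPKM in control. Pax2 had 1.26 to 4.22 FPKM in CR and 0 to 0.0512 FPKM in control. The part of these markers in the ligand differences was not tested.

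The other tested ligands did not pass. Wnt5a, which guides axons and cell movement, had 2.64, 3.16 and 3.14 FPKM in CR, against 3.50, 2.30 and 2.57 FPKM in control, with overlap (adjusted p = 0.680, limma). Wnt16 had a log2 fold change of 0.24 with all CR libraries above control (adjusted p = 0.186, limma), Wnt2b one of 0.17 (0.318) and Wnt8b, a ligand of the cortical hem and the hypothalamus, one of -0.10 (0.705).

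The summed ligand level overlapped between the groups, while its make-up did not. Over the 18 ligands it was 32.3 to 33.7 FPKM in CR and 32.6 to 38.9 FPKM in control. Wnt7a and Wnt7b made up 46.2% to 49.9% of it in CR (48.1 ± 1.86%) and 65.5% to 75.9% in control (69.8 ± 5.41%, SD, n = 3 each). The 5 ligands that rose made up 31.0% to 33.0% in CR and 11.9% to 17.4% in control. That group was formed after their values were seen and includes Wnt9a, so its share is a description.

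**Figure D3:**
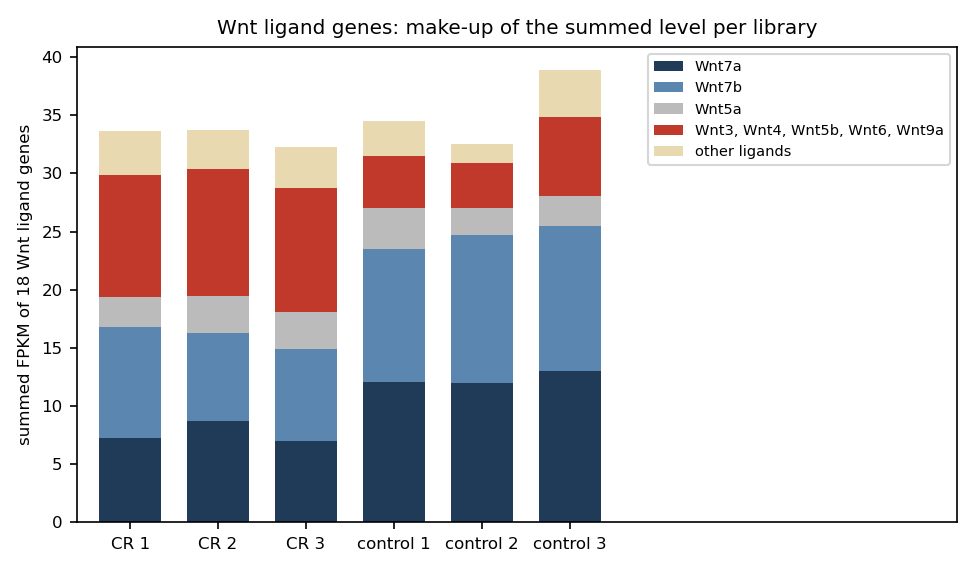
Summed FPKM of the 18 Wnt ligand genes in each library, stacked by ligand. Wnt7a and Wnt7b fill 46.2% to 49.9% of the CR bars and 65.5% to 75.9% of the control bars, and the 5 ligands that rose fill 31.0% to 33.0% of the CR bars and 11.9% to 17.4% of the control bars.

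The 7 other ligands lay under the level filter. Wnt9b had 14, 35 and 28 reads in CR, against 4, 6 and 6 in control, and 0.136, 0.292 and 0.234 FPKM in CR, against 0.0612, 0.0508 and 0.0699 FPKM in control. Its groups did not overlap, and a fit without the filter gave a log2 fold change of 0.20 (limma adjusted p = 0.0464). Wnt3a, a ligand of the cortical hem, had 2, 7 and 15 reads in CR, against 0, 0 and 3 in control. Wnt8a had 1, 2 and 1 reads in CR and none in control, which is at the limit of detection. Wnt2, Wnt11, Wnt10b and Wnt10a overlapped between the groups, with CR means of 0.0324 to 0.331 FPKM and control means of 0.035 to 0.336 FPKM.

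Several ligands lie side by side in the genome, with no other named gene between them in the deposited annotation. Wnt9b and Wnt3 lie head to head on chromosome 10, 23212 bases apart, and both had all CR libraries above control. Wnt3a and Wnt9a lie head to head on the same chromosome, 15815 bases apart. Wnt9a rose, and Wnt3a was too weak to be tested. Wnt6 and Wnt10a lie in tandem on chromosome 9, 6407 bases apart. Wnt6 rose, while Wnt10a stood at 0.0183 to 0.0473 FPKM in CR and 0.0289 to 0.044 FPKM in control.

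Among the Frizzled receptors, Fzd10 was the 1 member that passed. It had 1.96, 2.76 and 2.13 FPKM in CR, against 0.401, 0.481 and 0.815 FPKM in control. The lowest CR library lay well above the highest control library. Fzd10 (ENSRNOG00000022784, mRatBN7.2 chr12:28098371-28101566) averaged 2.28 ± 0.42 FPKM in CR and 0.566 ± 0.219 FPKM in control (SD, n = 3 each). CR was 4.04 times as high, with a log2 fold change of 1.07 (SE 0.145, limma adjusted p = 0.00209), and the call held in every alternative in which it was computed. The part of the regional markers in this rise was not tested. Midbrain markers summed to 22.1 to 27.3 FPKM in CR and 0.649 to 1.12 FPKM in control. Thalamic ones summed to 74.3 to 110 FPKM in CR and 3.23 to 19.5 FPKM in control. Summed hindbrain, hypothalamic and cerebellar markers were also higher in CR without overlap, and dorsal and ventral telencephalic sums were lower.

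The most abundant Frizzled, Fzd3, which acts in axon guidance and planar polarity, had 10.6, 9.62 and 11.4 FPKM in CR, against 11.5, 12.7 and 13.3 FPKM in control. All CR libraries lay below control, but it did not pass (log2 fold change -0.22, SE 0.0817, limma adjusted p = 0.0701). Fzd2 had a log2 fold change of -0.17 (adjusted p = 0.220, limma) and Fzd8 one of -0.15 (0.314). Fzd9 and Fzd6 both had log2 fold changes of 0.24, with CR above control in all libraries and limma adjusted p of 0.0990 for Fzd9 and 0.0960 for Fzd6. With voom on the reads Fzd6 passed (0.0423), as did Fzd3 (0.0473). Fzd4, the receptor of retinal and brain vessels, had 0.11 (0.501) and Fzd7 had 0.07 (0.673), and with quantile normalization these 2 were -0.02 and -0.05. Fzd5, under the level filter, had 0.364, 0.718 and 0.569 FPKM in CR, against 0.256, 0.308 and 0.242 FPKM in control. The 9 Frizzleds summed to 27.1 to 29.5 FPKM in CR and 27.6 to 28.2 FPKM in control, and Fzd10 made up 7.24% to 9.35% of that in CR and 1.42% to 2.90% in control.

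Both co-receptors fell. Lrp6, the main co-receptor for signalling through beta-catenin, had 6.72, 5.83 and 6.20 FPKM in CR, against 8.31, 9.14 and 8.90 FPKM in control. The groups were well apart, with means of 6.25 ± 0.444 FPKM in CR and 8.79 ± 0.429 FPKM in control (SD, n = 3 each). The log2 fold change was -0.43 (SE 0.076, limma adjusted p = 0.00508), and the call held in every alternative in which it was computed. Lrp6 is ENSRNOG00000006338 at mRatBN7.2 chr4:167270353-167400497. Its relative Lrp5 had 2.63, 2.44 and 2.53 FPKM in CR, against 3.02, 3.30 and 3.65 FPKM in control. All CR libraries lay below control (log2 fold change -0.29, SE 0.0924, limma adjusted p = 0.0459). Without any 1 library except control replicate 1, the Lrp5 call was lost (adjusted p 0.0872 to 0.138). The 2 genes summed to 8.27 to 9.34 FPKM in CR and 11.3 to 12.6 FPKM in control.

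The R-spondins split. Rspo3, which is made by the cortical hem and by vessels, had 5.52, 5.25 and 5.22 FPKM in CR, against 6.94, 7.49 and 7.44 FPKM in control. All CR libraries lay below control, with means of 5.33 ± 0.162 FPKM in CR and 7.29 ± 0.304 FPKM in control (SD, n = 3 each). The log2 fold change was -0.39 (SE 0.0699, limma adjusted p = 0.00553), with the call kept in every alternative in which it was computed. Rspo3 is ENSRNOG00000011568 at mRatBN7.2 chr1:28283914-28367061.

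Rspo2 had 1.79, 1.49 and 1.64 FPKM in CR, against 3.18, 2.86 and 2.33 FPKM in control. Its log2 fold change was -0.52 (SE 0.115, limma adjusted p = 0.0125), which without CR replicate 2 had an adjusted p of 0.0518. Rspo1 ran the other way, at 0.723, 1.54 and 1.65 FPKM in CR, against 0.551, 0.349 and 0.659 FPKM in control. CR replicate 1 stood just above the controls. The log2 fold change was 0.58 (SE 0.185, limma adjusted p = 0.0451), and the call was lost without any 1 library except CR replicate 1 (0.0562 to 0.147). Rspo4, under the level filter, had 2, 5 and 3 reads in CR and none in control, so no fold is given. A fit without the filter gave a log2 difference of 0.25 in FPKM + 1 (limma adjusted p = 0.02), whose size depends on the value added before the logarithm. The 4 genes summed to 8.16 to 8.68 FPKM in CR and 10.4 to 10.7 FPKM in control.

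**Figure D4:**
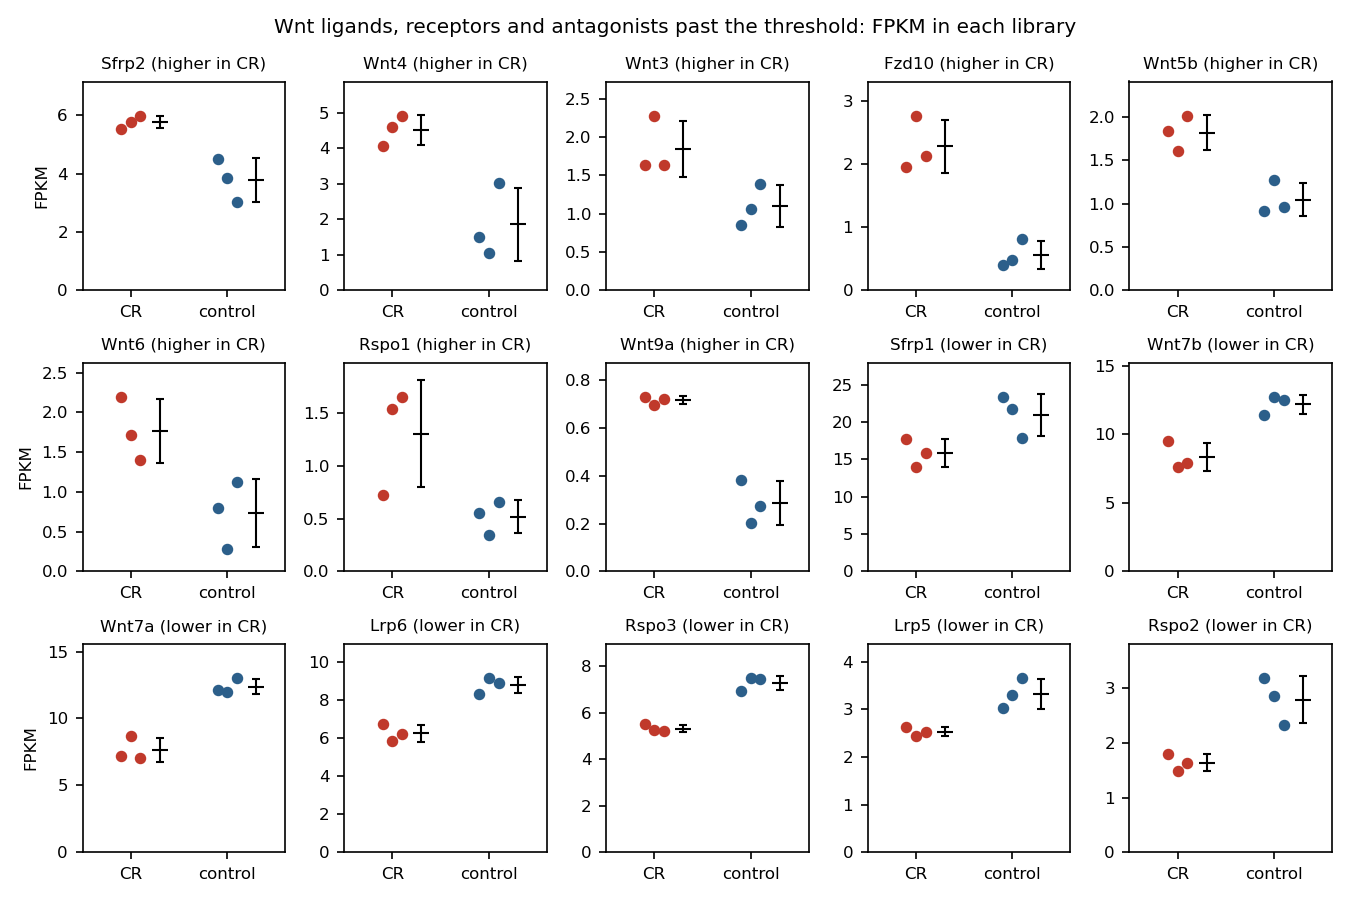
FPKM of the 15 genes past the threshold in the 3 CR libraries (red) and the 3 control libraries (blue), with the mean and SD of each group beside the points and each axis starting at 0. The groups do not overlap in any panel, and Fzd10 shows the widest relative gap, at 1.96 to 2.76 FPKM in CR and 0.401 to 0.815 FPKM in control.

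The secreted Frizzled-related proteins also moved in opposite directions. Sfrp1, the most abundant of the 42 genes and a product of cortical progenitors, had 17.7, 14.0 and 15.9 FPKM in CR, against 23.3, 21.7 and 17.8 FPKM in control. The highest CR library and the lowest control library nearly met (log2 fold change -0.38, SE 0.114, limma adjusted p = 0.0385). The call was lost without CR replicate 2, CR replicate 3, control replicate 1 or control replicate 2 (0.0948 to 0.125). Summed radial glia markers ran the other way, at 1020 to 1100 FPKM in CR and 711 to 887 FPKM in control. Most of that sum was Fabp7, at 879 to 945 FPKM in CR and 592 to 740 FPKM in control. Sox2, Slc1a3 and Hes5 overlapped between the groups. The part of radial glia markers in the fall of Sfrp1 was not tested.

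Sfrp2 had 5.55, 5.78 and 5.97 FPKM in CR, against 4.51, 3.85 and 3.02 FPKM in control, with no overlap. The log2 fold change was 0.51 (SE 0.12, limma adjusted p = 0.0156), and without CR replicate 2 or CR replicate 3 the adjusted p was 0.0546 to 0.059. Sfrp1 made up 68.5% to 74.2% of the summed Sfrp level in CR and 82.1% to 84.5% in control, and Sfrp2 23.2% to 28.3% in CR and 14.3% to 15.9% in control. Sfrp4, at 0.258 to 0.386 FPKM in CR and 0.123 to 0.213 FPKM in control, and Sfrp5, with 16, 14 and 13 reads in CR and 11, 0 and 2 in control, lay under the level filter.

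The tested Dkk and Axin genes, Dkk3, Dkk4, Axin1 and Axin2, did not pass with limma or with voom on the reads, and their unadjusted limma p-values were 0.0677, 0.63, 0.0528 and 0.218. Dkk3, a divergent family member that does not act as a classical co-receptor blocker, had 11.3, 12.9 and 11.8 FPKM in CR, against 10.9, 10.6 and 10.9 FPKM in control. All CR libraries lay above control by a small margin (log2 fold change 0.14, SE 0.0641, limma adjusted p = 0.138). Dkk4 had 1.27, 0.573 and 0.574 FPKM in CR, against 1.05, 0.714 and 0.910 FPKM in control. Its value is uncertain, since 936 of its 1491 exon bases overlap Polb on the opposite strand, which averaged 32.6 FPKM, and the strand setting used by the authors is not known here. Dkk2, under the level filter, had 0.366 to 0.512 FPKM in CR and 0.345 to 0.439 FPKM in control.

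Axin1, the constitutive scaffold, had 12.1, 11.3 and 10.9 FPKM in CR, against 12.4, 12.5 and 15.1 FPKM in control (log2 fold change -0.20, SE 0.0865, limma adjusted p = 0.115). Axin2, whose transcription rises with signalling through beta-catenin, had 5.78, 8.62 and 6.65 FPKM in CR, against 6.32, 4.98 and 6.56 FPKM in control. The groups overlapped (log2 fold change 0.20, SE 0.147, limma adjusted p = 0.333).

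The rest of the pathway was counted over 8 further lists, which share some genes. Of 82 distinct genes tested, 14 rose, 20 fell and 48 did not pass, with a median log2 fold change of -0.01 against 0.01 over all genes tested. Of all genes tested 17.7% rose, 16.2% fell and 33.9% passed in either direction, the shares beside which the counts per list stand. Among 6 genes of Wnt secretion and its carriers, Wls, the transporter that takes Wnt proteins to the cell surface, rose with means of 12.7 ± 1.36 FPKM in CR and 8.62 ± 0.87 FPKM in control (log2 fold change 0.51, limma adjusted p = 0.00761). Sdc1, a heparan sulphate carrier, fell with 5.82 ± 0.798 FPKM in CR and 9.72 ± 0.371 FPKM in control (log2 fold change -0.66, limma adjusted p = 0.00279). The other 4, with Gpc3 and Porcn, did not pass. Of 7 other Wnt receptors, Ryk fell with 17.5 ± 0.776 FPKM in CR and 21.2 ± 0.666 FPKM in control (limma adjusted p = 0.00972), and 6, with Ptk7 and Reck, did not pass.

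Of 3 genes for R-spondin receptors and receptor turnover, 2 rose and 1 did not pass. Lgr4 averaged 8.21 ± 1.15 FPKM in CR and 5.45 ± 1.14 FPKM in control (log2 fold change 0.52, limma adjusted p = 0.0275), and Lgr6 0.893 FPKM in CR and 0.434 FPKM in control (0.40, limma adjusted p = 0.0353). Znrf3, the ligase that R-spondins counter, did not pass (adjusted p = 0.273, limma). The Lgr4 call was lost without CR replicate 2, CR replicate 3, control replicate 1 or control replicate 2 (0.0767 to 0.0982), and that of Lgr6 without any 1 library except control replicate 2 (0.0521 to 0.115). Lgr6 also reached 0.5 FPKM through the CR libraries alone.

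Of 8 other extracellular inhibitors, 2 rose, 1 fell and 5, with Igfbp4 and Sostdc1, did not pass. Apcdd1 averaged 37.5 ± 1.44 FPKM in CR and 24.2 ± 3.69 FPKM in control (log2 fold change 0.62, limma adjusted p = 0.00345), and Tpbg 6.55 FPKM in CR and 4.68 FPKM in control (0.41, limma adjusted p = 0.00936). Draxin, an axon guidance protein, averaged 22.0 FPKM in CR and 28.8 FPKM in control (-0.38, limma adjusted p = 0.00457), with 299 of its 6212 exon bases overlapping Mad2l2 on the opposite strand.

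Of 22 cytoplasmic transducers, 2 rose, 8 fell and 12 did not pass. Amer2, which binds Apc at the membrane, fell with 6.91 ± 0.178 FPKM in CR and 13.7 ± 1.19 FPKM in control (log2 fold change -0.89, limma adjusted p = 0.000525). Dact1 fell with 11.5 FPKM in CR and 16.3 FPKM in control (-0.46, limma adjusted p = 0.0033), and Nkd1, a feedback inhibitor, rose with 8.58 FPKM in CR and 5.47 FPKM in control (0.58, limma adjusted p = 0.0143). The Nkd1 call was lost without CR replicate 1 or CR replicate 2 (0.0507 to 0.0509). Ctnnb1, which encodes beta-catenin, averaged 144 ± 4.02 FPKM in CR and 141 ± 2.42 FPKM in control and did not pass (adjusted p = 0.604, limma), nor did Gsk3a.

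Of 14 nuclear effectors, 3 rose, 4 fell and 7, with Ctnnbip1 and Chd8, did not pass. Tcf7l2 had 44.7, 68.1 and 45.2 FPKM in CR, against 1.50, 12.9 and 11.9 FPKM in control (log2 fold change 2.78, limma adjusted p = 0.0114). This gene is strongly expressed in the thalamus and is also 1 of the 4 thalamic markers used here. Lef1, a partner of beta-catenin and itself a target, had 3.73, 6.02 and 4.20 FPKM in CR, against 1.74, 1.79 and 2.80 FPKM in control (0.86, limma adjusted p = 0.0110). Tle3, a co-repressor, averaged 6.48 FPKM in CR and 9.73 FPKM in control (-0.52, limma adjusted p = 0.00241).

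Of 16 target genes, 4 rose, 3 fell and 9, with Id2 and Nrcam, did not pass. Lef1, Apcdd1 and Nkd1, which rose, are on that list too. Sp5, a direct target, had 2.02, 2.42 and 1.65 FPKM in CR, against 0.706, 0.391 and 0.435 FPKM in control, 3.98 times as high in CR (log2 fold change 1.00, limma adjusted p = 0.00221). The target genes that fell were Ccnd2 (-0.49, limma adjusted p = 0.00674), Tnfrsf19 (-0.47, 0.0132) and Myc (-0.37, 0.0219). Of 12 planar polarity genes, 3 rose, 2 fell and 7, with Prickle4 and Scrib, did not pass. Those that rose were Vangl1 (0.49, limma adjusted p = 0.00939), Fuz (0.45, 0.00804) and Ankrd6 (0.37, 0.00548). Those that fell were Celsr3 (-0.36, limma adjusted p = 0.0108) and Prickle2 (-0.34, 0.0101). Of the 1647 exon bases of Fuz, 222 overlap Ap2a1 on the opposite strand.

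**Figure D5:**
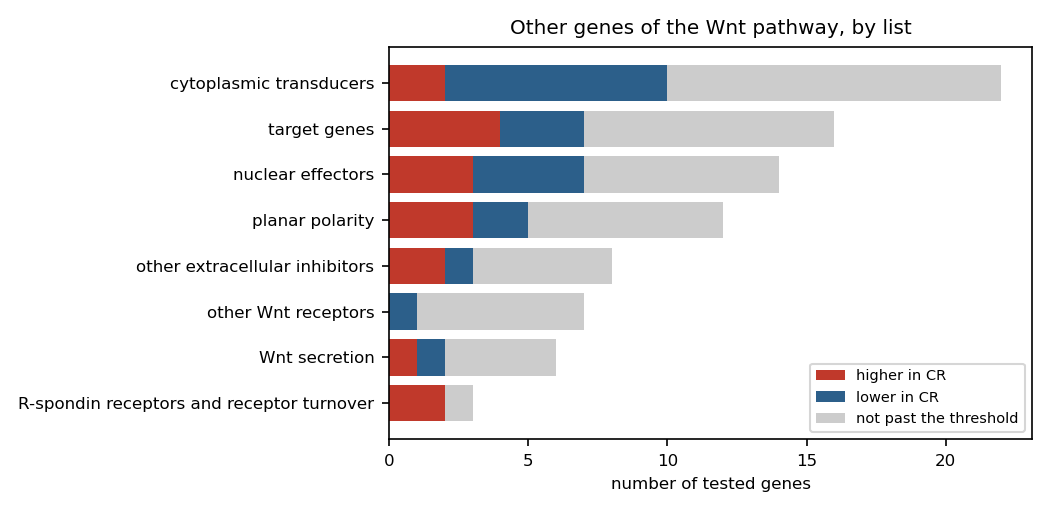
Number of tested genes in each of the 8 other Wnt pathway lists that rose in CR (red), fell in CR (blue) or did not pass (grey). Cytoplasmic transducers hold 2 that rose and 8 that fell of 22, and R-spondin receptors and turnover hold 2 that rose of 3, where 17.7% of all genes tested rose and 16.2% fell.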

How the data were processed

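For each of 6 libraries the authors deposited FPKM of 30498 Ensembl genes. The submitters' processing notes name Trim Galore 0.4.4, Trimmomatic 0.36, cutadapt 1.16, STAR 2.7.10a, featureCounts 2.0.1 and build mRatBN7.2. Their settings, including the strand setting, are not given in the sources used here. FPKM times gene length came out as whole multiples of 1 step in each library for 100% of non-zero values (tolerance 0.05), which gave the assigned reads. A count of 3 reads per kilobase equals 0.117 to 0.214 FPKM, which covers counting error only.

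Genes averaging 0.5 FPKM or more were tested on log2(FPKM + 1) with limma 3.58.1 (R 4.3.3, trended variance, two-sided, Benjamini-Hochberg, threshold 0.05), with group as the only term. The fit was run on simulated data with 200 changed genes and the same spread set for every gene. That setting is simpler than these libraries, so it checks the working of the fit and not its error rate here. The members and lists were chosen with earlier results of these data known. Values per library are given for genes past the threshold, at 5 FPKM or more, or highest in their role. Of each other list up to 3 called genes with the largest change and 2 uncalled genes with the highest level are named. The genes that fell in the target and planar polarity lists are named as well. Their single results under the alternatives are not given. Other pseudocounts, filters, scalings, limma settings, the replicate number as a block, voom on the reads and leaving out each library were tried, and a covariate for Y-linked RNA was added after the data were seen.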

Additional observations from a re-analysis of the deposited data

How the results depend on the processing

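The calls of Fzd10, Lrp6, Rspo3, Wnt4, Wnt7a and Wnt7b were kept in each of the 17 alternatives in which they were computed. The other 9 called genes lost their call in at least 1, and 0 of the 15 changed direction. Of 495 values of single genes under an alternative, 433 kept direction and side of the threshold. Of the 30 tested members, the genes called higher numbered 5 with no filter (7 of all 42, with Rspo4 and Wnt9b, beside 5 lower), 2 with a mean of at least 2 FPKM, 4 with quantile normalization and 5 with Y-linked RNA as a covariate, against 8. With at least 2 FPKM, 9 of 18 tested members were called in all. Leaving out 1 library gave 3210 to 5042 calls over all genes (1668 to 2698 higher, 1542 to 2344 lower), 7 to 12 over the members (2 to 6 higher, 4 to 6 lower) and 27 to 36 over the other lists.

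Deviations of same-numbered libraries from their group means correlated only weakly (0.0245, 0.0198 and 0.0454), against -0.0428 to 0.0165 for differently numbered ones. Such weak correlations cannot exclude a shared litter or batch, and the labels do not say whether the numbers pair samples. With the replicate number as a block, 4445 genes, 11 members (5 higher, 6 lower) and 32 genes of the other lists were called. The block ended the calls of Lrp5, Rspo1, Wnt3, Wnt9a and Lgr6 (limma adjusted p 0.0942, 0.0545, 0.0663, 0.0579 and 0.0722). It ended no other call among the named genes that were followed through the alternatives.

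Beside single libraries, dropping the filter ended the calls of Lrp5 (0.0909), Rspo1 (0.083), Sfrp1 (0.0815), Wnt3 (0.0903), Wnt6 (0.0716) and Lgr4 (0.0639). Quantile normalization ended those of Rspo1 (0.0845), Sfrp1 (0.0532), Wnt3 (0.115), Wnt5b (0.0858), Wnt9a (0.0833) and Lgr6 (0.149). The Y-linked covariate, added after the data were seen, ended those of Rspo1 (0.0766), Sfrp1 (0.0749), Wnt3 (0.0804), Wnt6 (0.0658) and Lgr4 (0.0587), and with it Fzd3 passed (0.0308). Wnt3 also missed with median-ratio factors (0.0523), Wnt6 with a pseudocount of 0.1 (0.0509) and Sfrp1 without the trend (0.0604). With voom Fzd3, Fzd6 and Sostdc1 passed.

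Uncalled genes near 0 changed sign. Porcn was 0.00 and Ctnnb1 0.00 with median-ratio factors. With quantile normalization Ctnnb1 was -0.05, Fzd7 -0.05 and Fzd4 -0.02. Leaving out 1 library gave Dkk4 -0.26 to 0.00, Wnt5a -0.01 to 0.21, Reck -0.01 to 0.20, Wnt8b -0.28 to 0.08, Ptk7 -0.05 to 0.00 and Porcn 0.00 to 0.07. The cause was not tested. Depth limits the 12 members under the filter, whose means were 0.0159 to 0.410 FPKM.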
